A study of Homo sapiens with 42 samples.

Results

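The MYC and MAX network was followed through 10 genes, namely MYC, MAX, MXD1, MXD3, MXD4, MXI1, MNT, MGA, MLX and MLXIP, which were taken by symbol from the 58243 gene IDs of the count tables. Each symbol matched 1 ID, and all 10 passed the filter on low counts in both RNA fractions. The cells were K562, an established human line of chronic myeloid leukemia that carries the BCR-ABL1 fusion kinase. They were left untreated (CTRL), exposed to the kinase inhibitor imatinib (IM, 1 μM) for 1, 6 or 18 h, to JTE-607 (JTE, 5 μM), an inhibitor of the endonuclease CPSF73 that cleaves pre-mRNA at the 3′ end, for 1, 6 or 18 h, or to hyperosmotic KCl (110 mM) for 1 or 3 h. Poly(A) mRNA of whole cells gave 27 libraries in 9 groups, and rRNA-depleted nuclear RNA gave 15 libraries in 5 groups (CTRL, IM 1h, IM 18h, JTE 1h and KCl 1h), with 3 biological replicates per group. All groups share this single line and untreated baseline, and no member was itself perturbed.

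MYC is a transcription factor that binds E-box DNA (core CACGTG) once paired with its partner MAX, and it drives genes for ribosome production, nucleotide synthesis and cell cycle entry. MXD1, MXD3, MXD4, MXI1 and MNT compete for MAX and bring corepressors to the same sites, and MGA does so within a Polycomb-related complex. MLX is a MAX-like partner for some of these repressors and for MLXIP, a sensor of glucose phosphates that activates TXNIP and ARRDC4. In chronic myeloid leukemia, MYC expression is known to depend on BCR-ABL1 signaling.

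The mRNA libraries held between 16439848 and 62953314 counts, of which KCl 1h replicates 2 and 3 were the deepest (62953314 and 42474454 counts), and the nuclear libraries between 16175394 and 25103205. All 12 markers of K562 cells were present, with a mean of at least 1 CPM, the scaled share of a library's counts that is defined next. The T cell, B cell and fibroblast lists each had 1 of 4 markers at that level and summed to at most 3.63, 6.54 and 11.9 CPM in an mRNA library. The epithelial list had 3 of 5 (KRT8 was highest, at 170 CPM), and the part of such transcripts in the results was not tested.

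CPM are counts relative to a library's TMM-scaled total (edgeR), and so shares of a library, so that fewer cells of a kind and less RNA per cell cannot be told apart. To compare genes, CPM were divided by exon length. MYC had the highest level per kilobase of the 10 genes in all 42 libraries. In untreated mRNA it stood at 97.2 ± 23.6 CPM per kilobase (SD, n = 3), followed by MLX (14.2 ± 0.445), MLXIP (11.9 ± 1.21), MAX (11.5 ± 0.505) and MGA (10.5 ± 1.14). The antagonists were below them, with MXD1 at 6.68 ± 1.67, MXI1 at 6.38 ± 1.34, MNT at 2.56 ± 0.138, MXD4 at 1.14 ± 0.196 and MXD3 at 0.489 ± 0.0241 CPM per kilobase. Differences between MLXIP, MAX and MGA, and between MXD1 and MXI1, were within the spread of the libraries. In untreated nuclear RNA, MYC was again first (122 ± 10.6 CPM per kilobase), and MXD4 (1.85 ± 0.0321) and MXD3 (1.62 ± 0.149) were again the lowest.

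E-box matches were looked up in RefSeq promoters of build GRCh38.p14, each holding 250 bases before and 50 after an annotated start. Promoters were given for 9 members (14 promoters). The palindrome CACGTG, which reads the same on both strands, was found in those of 3 of the 9 members, MXD4, MNT and MLX, against 8.77% of all genes with a promoter given. These 3 are shown because they are all the members with a match. The stretch outside the annotated gene is printed 5′ to 3′ on the gene's strand, with the E-box in capitals: MXD4 at chr4:2262295-2262359 (minus strand, E-box 238 bases before the start site), MNT at chr17:2401119-2401310 (minus strand, 193 bases before) and MLX at chr17:42566850-42567067 (plus strand, 50 bases before). A match describes the sequence and says nothing of binding.
MXD4: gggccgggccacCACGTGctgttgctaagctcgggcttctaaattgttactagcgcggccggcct
MNT: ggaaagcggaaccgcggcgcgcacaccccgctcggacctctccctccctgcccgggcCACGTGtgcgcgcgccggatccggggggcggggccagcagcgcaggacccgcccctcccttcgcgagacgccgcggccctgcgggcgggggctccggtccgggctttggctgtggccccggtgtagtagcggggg
MLX: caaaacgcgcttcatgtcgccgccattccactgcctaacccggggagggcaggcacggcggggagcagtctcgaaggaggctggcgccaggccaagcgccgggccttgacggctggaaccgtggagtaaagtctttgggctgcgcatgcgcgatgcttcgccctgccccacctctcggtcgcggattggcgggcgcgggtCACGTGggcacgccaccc

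MYC mRNA (ENSG00000136997, on chromosome 8, 3001 exon bases) fell in K562 cells exposed to imatinib for 6 and 18 h and was lower in every library from 1 h on. The CTRL libraries held 277, 369 and 229 CPM. After 1 h of imatinib the libraries held 224, 156 and 104 CPM, all below CTRL by a narrow gap. The change did not pass the test (log2 fold change -0.85 with SE 0.28, adjusted p 1 in edgeR). That test did not pair libraries, and the numbering of the mRNA CTRL libraries is uncertain. Under the numbering that the read totals in the paper give, the pairs went from 369 to 224, 277 to 156 and 229 to 104 CPM. The change within these pairs was not tested. At 6 h they held 143, 52.3 and 106 CPM and at 18 h 83.8, 96.97 and 112 CPM, with no overlap with CTRL at either time. The fall was called at 6 h (log2 fold change -1.54 with SE 0.29, adjusted p 0.000793 in edgeR) and at 18 h (log2 fold change -1.58 with SE 0.29, adjusted p 0.000140 in edgeR), a call being an adjusted p under 0.05 together with a change beyond 0.6 on the log2 scale. No further fall was seen from 6 to 18 h (log2 fold change -0.04, SE 0.28), and the IM 6h libraries spread wider than those at 18 h.

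In nuclear RNA, MYC followed the same order. The CTRL libraries held 336, 399.7 and 366 CPM, the IM 1h libraries 203, 246 and 155 and the IM 18h libraries 82.6, 137 and 119. The groups did not overlap, and the IM 18h values were the lowest of all nuclear libraries. The fall was called at 18 h (log2 fold change -1.71 with SE 0.18, adjusted p 1.35e-06 in edgeR). At 1 h the fitted change was about as large as in mRNA but missed the adjusted threshold (log2 fold change -0.87 with SE 0.18, adjusted p 0.149 in edgeR). When same-numbered nuclear libraries were treated as pairs (a replicate block), this 1 h change was called (log2 fold change -0.88, edgeR adjusted p 0.000873), and DESeq2 called it as well (adjusted p 0.00227). The nuclear and the mRNA response differed by -0.01 at 1 h (SE 0.37) and by -0.07 at 18 h (SE 0.26) on the log2 scale, and neither difference passed the test.

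JTE-607 left MYC nearer to CTRL. Its mRNA libraries held 248, 178 and 156 CPM at 1 h, 344, 284 and 274 at 6 h and 175, 199.6 and 179.9 at 18 h. The 1 h and 6 h libraries overlapped CTRL when compared without pairing. Under the numbering that the read totals in the paper give, the pairs at 1 h went from 369 to 248, 277 to 178 and 229 to 156 CPM. Those at 6 h differed in direction, and neither set of pairs was tested. At 1 h the fitted change did not pass the test (log2 fold change -0.59 with SE 0.28, adjusted p 0.659 in edgeR). The 18 h libraries lay below every CTRL library without passing the test (log2 fold change -0.66 with SE 0.28, adjusted p 0.156 in edgeR). MYC at 18 h was also lower than at 6 h, again short of a call (log2 fold change -0.70 with SE 0.28, adjusted p 0.0774 in edgeR). In nuclear RNA the JTE 1h libraries held 218, 288 and 232 CPM, each below every CTRL library (log2 fold change -0.58 with SE 0.18, adjusted p 0.0504 in edgeR). With the replicate block this change had an adjusted p of 0.00155 in edgeR and a log2 fold change of -0.59, just inside the fold threshold, and without JTE 1h replicate 2 the unblocked change was called (-0.71, edgeR adjusted p 0.0310).

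KCl for 1 h gave no called change of MYC in either fraction. The mRNA libraries held 363, 254 and 300.4 CPM, and the nuclear libraries 372, 448 and 399 CPM. Compared without pairing, they overlapped CTRL in both fractions. Each nuclear library was above the CTRL library of the same number (336, 399.7 and 366 CPM), which the replicate block did not call. After 3 h the mRNA libraries held 241, 205 and 176 CPM, which overlapped CTRL when compared without pairing. The change did not pass the test (log2 fold change -0.49 with SE 0.28, adjusted p 0.279 in edgeR). Under the numbering that the read totals in the paper give, the pairs went from 369 to 241, 277 to 205 and 229 to 176 CPM. The change within these pairs was not tested. Ordered by mean mRNA level, MYC was at 306 ± 54.7 CPM in KCl 1h, 300.4 ± 38.1 in JTE 6h, 292 ± 70.7 in CTRL, 207 ± 32.5 in KCl 3h, 194 ± 48.1 in JTE 1h, 185 ± 13.1 in JTE 18h, 162 ± 60.3 in IM 1h, 100.3 ± 45.6 in IM 6h and 97.7 ± 14.2 in IM 18h (SD, n = 3). The libraries of each group overlapped those of the next group in this order.

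**Figure D1:**
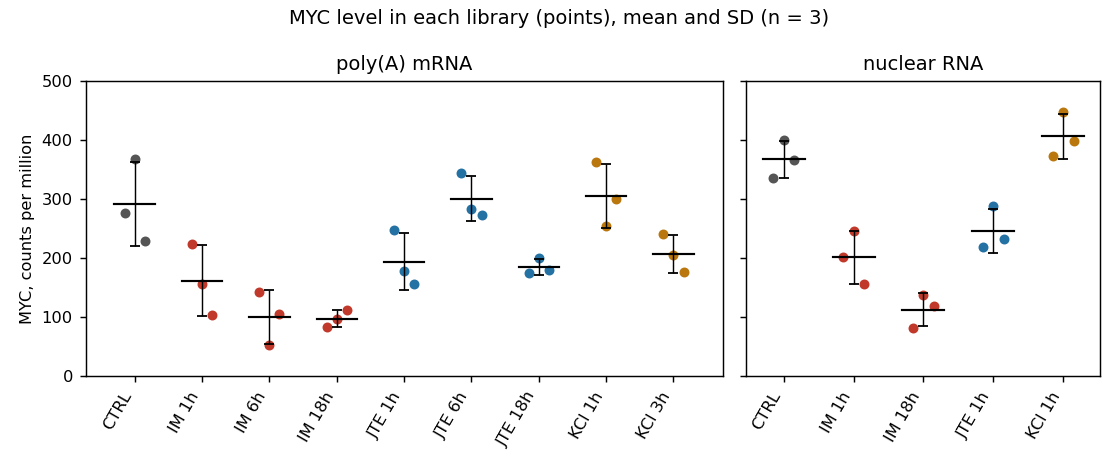
MYC level in CPM (vertical axis) in each library of the 9 mRNA groups (left) and the 5 nuclear groups (right), with points for libraries and bars for the mean and SD (n = 3). The IM 6h and IM 18h libraries lie at or below 143 CPM, below all CTRL libraries, while JTE 6h and KCl 1h overlap CTRL.

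MAX (ENSG00000125952, chromosome 14, 65006174 to 65102695), the partner that MYC and its antagonists share, fell with imatinib by less than MYC did. Its mRNA held 52.9, 48.5 and 51.1 CPM in CTRL, 48.6, 50.9 and 50.7 at IM 1h, 39.4, 32.9 and 36.9 at IM 6h and 27.1, 29.2 and 31.6 at IM 18h. The 1 h libraries were within the CTRL range, and those of 6 h and 18 h lay wholly below it, with 18 h the lowest. The fall was called at 18 h (log2 fold change -0.79 with SE 0.10, adjusted p 6.94e-07 in edgeR). At 6 h the adjusted p passed but the change was inside the fold threshold (log2 fold change -0.48 with SE 0.09, adjusted p 0.00107 in edgeR). The nuclear libraries held 53.7, 54.9 and 59.9 CPM in CTRL and 28.5, 28.7 and 33.3 at IM 18h, again without overlap, and the fall was called (log2 fold change -0.90 with SE 0.10, adjusted p 5.22e-07 in edgeR). Across JTE and KCl the mean mRNA level of MAX stayed between 48.2 CPM (KCl 3h) and 56.00 CPM (KCl 1h), against 50.8 CPM in CTRL, with no call.

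Among the antagonists that recruit corepressors, MXD4 and MXD3 rose with imatinib in both fractions, MXI1 rose in mRNA at 18 h, and MXD1 and MNT did not pass the test there. MXD4 (ENSG00000123933, chromosome 4, 2247432 to 2262294, minus strand, E-box promoter printed above) showed the largest change of all members. Its mRNA held 6.67, 9.43 and 7.97 CPM in CTRL, 8.94, 7.59 and 7.58 at IM 1h, 14.8, 16.4 and 27.2 at IM 6h and 46.8, 33.7 and 32.2 at IM 18h. The 1 h libraries lay within the CTRL range, whereas those of 6 h were above it and those of 18 h above all of 6 h. The rise was called at 6 h (log2 fold change 1.28 with SE 0.23, adjusted p 0.000443 in edgeR), at 18 h (log2 fold change 2.23 with SE 0.23, adjusted p 1.02e-07 in edgeR) and from 6 to 18 h (log2 fold change 0.95 with SE 0.22, adjusted p 0.0100 in edgeR). The call between both times was lost when replicate 1 of IM 18h, or replicate 1 or 2 of IM 6h, was left out, with log2 fold changes from 0.76 to 1.26 over the fits that left out 1 library. Nuclear MXD4 held 12.9, 12.9 and 13.3 CPM in CTRL and 57.2, 50.2 and 60.03 at IM 18h, a rise of similar size (log2 fold change 2.10 with SE 0.14, adjusted p 1.20e-09 in edgeR). With JTE the MXD4 mRNA was nearer CTRL. The libraries held 14.8, 9.05 and 11.02 CPM at 6 h, overlapping CTRL, and 13.2, 13.5 and 12.7 at 18 h, all above CTRL, at an adjusted p just over the threshold (log2 fold change 0.71 with SE 0.23, adjusted p 0.0512 in edgeR); 7 of 8 other settings called it (adjusted p from 0.00948 to 0.0462).

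MXD3 (ENSG00000213347, chromosome 5, 177301461 to 177312757, minus strand) was the least abundant member. Its mRNA held 2.65, 2.51 and 2.40 CPM in CTRL (43 to 48 counts), 5.52, 8.97 and 6.55 at IM 6h and 9.77, 9.37 and 7.98 at IM 18h (145 to 180 counts). All treated libraries at these times were above CTRL, and the rise was called at 6 h (log2 fold change 1.47 with SE 0.22, adjusted p 7.94e-05 in edgeR) and at 18 h (log2 fold change 1.84 with SE 0.22, adjusted p 7.47e-07 in edgeR). The IM 1h libraries (4.92, 3.00 and 3.08 CPM) were above CTRL too, without passing the test (log2 fold change 0.54 with SE 0.23). In the nucleus MXD3 held 7.64, 8.20 and 9.16 CPM in CTRL and 18.2, 16.2 and 20.7 at IM 18h, also a called rise (log2 fold change 1.14 with SE 0.14, adjusted p 1.64e-06 in edgeR). The nuclear minus the mRNA response at 18 h was -0.65 on the log2 scale, which did not pass the adjusted test (SE 0.22, unadjusted p 0.00918, edgeR adjusted p 0.715). JTE 6h libraries held 4.40, 3.59 and 4.17 CPM, above CTRL and called (log2 fold change 0.68 with SE 0.23, adjusted p 0.0364 in edgeR), but the call was lost in 5 of the 6 fits without 1 library (log2 fold change from 0.61 to 0.76), all but that without JTE 6h replicate 2. The mRNA libraries of JTE 1h (log2 fold change 0.44) and JTE 18h (0.57) were above CTRL without passing the test. Those of KCl 1h (-0.43) and KCl 3h (-0.56) were below it, also without passing. MXD3 shares 40.4% of its exon bases with PRELID1 (opposite strand) and RAB24 (same strand), and pairs over shared exons are not counted for either gene. PRELID1, which encodes a mitochondrial lipid-transfer protein, went the other way at IM 18h (log2 fold change -1.01 with SE 0.21, adjusted p 0.000393 in edgeR), RAB24 had a log2 fold change of 0.002 there, and at JTE 6h RAB24 fell (log2 fold change -0.96 with SE 0.24, adjusted p 0.00600 in edgeR). Their part in the MXD3 values was not tested.

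MXI1 (ENSG00000119950, chromosome 10, 110207605 to 110287365) held 28.7, 35.8 and 23.6 CPM in CTRL mRNA and 53.97, 41.5 and 41.6 at IM 18h. The groups did not overlap, and the rise was called (log2 fold change 0.64 with SE 0.24, adjusted p 0.0343 in edgeR). It lost the call without CTRL replicate 1 or 3 or without IM 18h replicate 1 or 2 (log2 fold change from 0.46 to 0.78 over the fits without 1 library). In nuclear RNA MXI1 held 28.8, 28.7 and 26.6 CPM in CTRL and 44.9, 38.4 and 40.7 at IM 18h, a difference that passed the adjusted p inside the fold threshold (log2 fold change 0.56 with SE 0.10, adjusted p 9.15e-05 in edgeR) and was called without nuclear CTRL replicate 1 (0.62) or 2 (0.64) or nuclear IM 18h replicate 2 (0.61). MXD1 (ENSG00000059728, chromosome 2, 69897688 to 69942945) held 49.7, 43.5 and 37.2 CPM in nuclear CTRL, 65.4, 54.4 and 60.1 at IM 1h and 57.5, 57.6 and 56.9 at IM 18h. Both imatinib groups lay above CTRL, and at 18 h the adjusted p passed inside the fold threshold (log2 fold change 0.40 with SE 0.13, adjusted p 0.0180 in edgeR). In mRNA the MXD1 libraries of CTRL (33.8, 39.1 and 54.2 CPM) and of IM 18h (49.7, 53.01 and 49.6 CPM) overlapped.

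MNT (ENSG00000070444, chromosome 17, 2384060 to 2401118, minus strand), a widely expressed antagonist, was called in KCl 3h alone among the comparisons with CTRL. Its mRNA held 22.3, 21.1 and 23.5 CPM in CTRL, 19.9, 17.8 and 15.3 at KCl 1h and 13.5, 12.8 and 9.06 at KCl 3h. Both KCl groups were below CTRL and the 3 h libraries were below all of 1 h. The fall was called at 3 h (log2 fold change -0.92 with SE 0.18, adjusted p 0.000594 in edgeR), while the step from 1 to 3 h missed the adjusted p (log2 fold change -0.58 with SE 0.18, adjusted p 0.0576 in edgeR) except without KCl 1h replicate 3 (log2 fold change -0.68, adjusted p 0.0427). MNT shares 12.2% of its exon bases with an antisense gene of no symbol. MGA (ENSG00000174197, chromosome 15, 41621224 to 41773081) was lower at KCl 3h too. It held 180.3, 168 and 207 CPM in CTRL and 130.2, 141 and 135 at KCl 3h, without overlap and inside the fold threshold (log2 fold change -0.45 with SE 0.14, adjusted p 0.0319 in edgeR). The IM 6h libraries held 129.8, 108 and 166 CPM, all below CTRL and again inside the fold threshold (log2 fold change -0.46 with SE 0.14, adjusted p 0.0294 in edgeR), although without IM 6h replicate 3 the change was -0.66 and called.

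MLX (ENSG00000108788, chromosome 17, 42567068 to 42573239) was lower with imatinib and with JTE. The mRNA libraries held 61.1, 58.4 and 61.99 CPM in CTRL, 47.2, 35.5 and 41.1 at IM 6h, 40.9, 41.4 and 40.7 at IM 18h and 38.5, 45.1 and 36.98 at JTE 6h. None of the treated groups overlapped CTRL, and all passed the adjusted p with changes inside the fold threshold, at IM 6h (log2 fold change -0.55 with SE 0.09, adjusted p 0.000301 in edgeR), IM 18h (log2 fold change -0.56 with SE 0.09, adjusted p 5.06e-05 in edgeR) and JTE 6h (log2 fold change -0.59 with SE 0.09, adjusted p 7.26e-05 in edgeR). These values lay close to that threshold, and leaving out CTRL replicate 2 moved all 3 past it (-0.60 at IM 6h, -0.61 at IM 18h and -0.64 at JTE 6h), as did leaving out IM 6h replicate 1 (-0.69 at IM 6h), CTRL replicate 3 (-0.61 at JTE 6h) or JTE 6h replicate 2 (-0.68 at JTE 6h). By JTE 18h the libraries stood at 51.4, 47.3 and 51.4 CPM, above those of 6 h. Nuclear MLX held 73.3, 79.8 and 77.6 CPM in CTRL and 46.1, 49.7 and 51.2 at IM 18h, and this fall was called (log2 fold change -0.65 with SE 0.09, adjusted p 7.12e-06 in edgeR). That call was lost without nuclear CTRL replicate 2 (-0.57) or 3 (-0.59) and with upper quartile normalization (log2 fold change -0.53). MLX shares 18.1% of its exon bases with PSMC3IP on the opposite strand, whose log2 fold change at JTE 6h was 0.56, inside the fold threshold (edgeR adjusted p 0.0130), and its part in the MLX value was not tested. MLXIP (ENSG00000175727, chromosome 12, 122078722 to 122147347) stayed between 146 CPM (KCl 3h) and 218 CPM (JTE 18h) on average, against 165 CPM in CTRL. Only its JTE 18h libraries (217, 207 and 230.3 CPM) passed the adjusted p in a comparison with CTRL, inside the fold threshold (log2 fold change 0.40 with SE 0.12, adjusted p 0.0379 in edgeR).

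**Figure D2:**
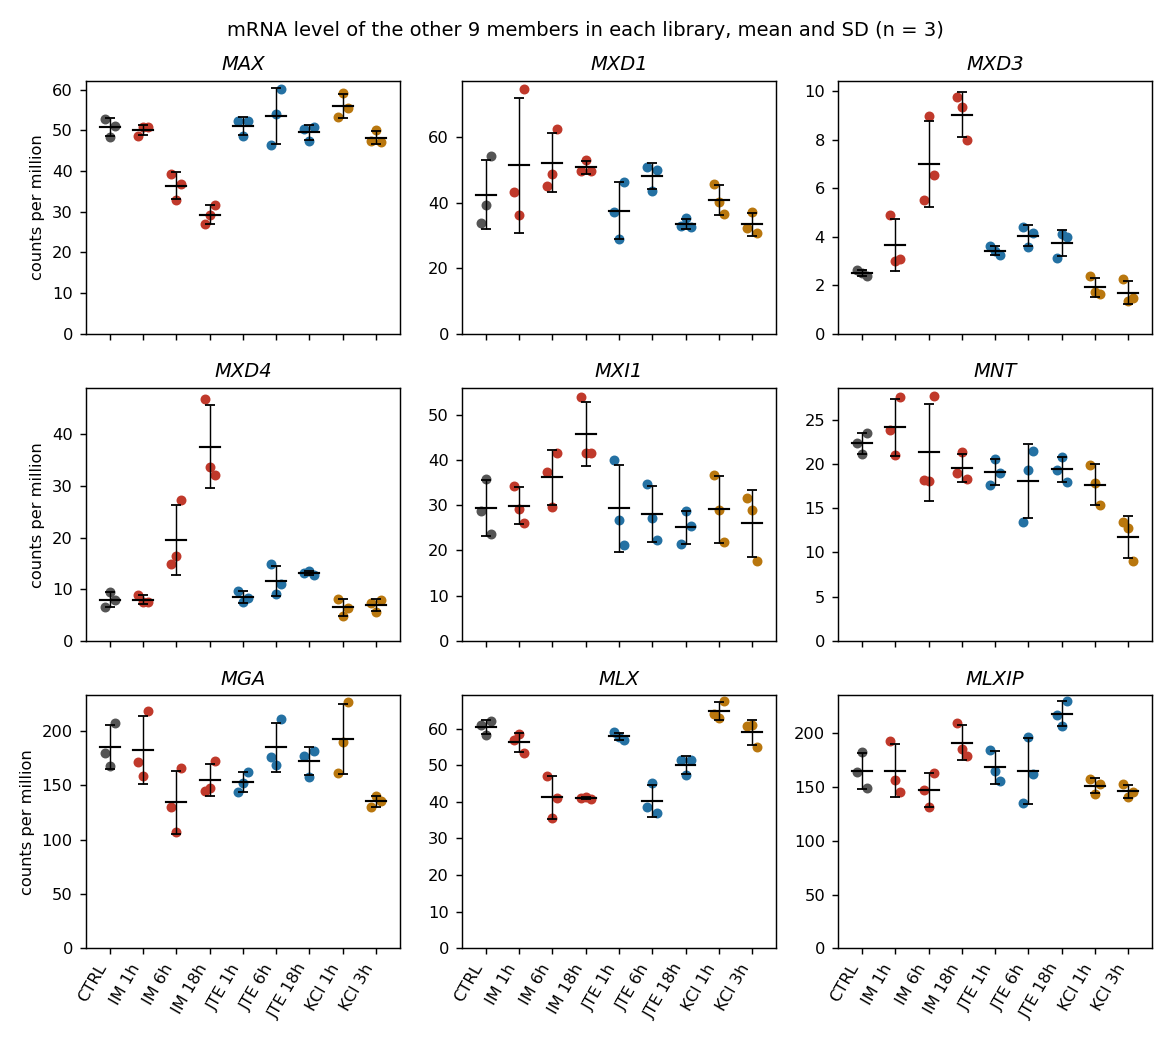
mRNA level in CPM (vertical axes, each from 0) of the 9 genes other than MYC in each library of the 9 groups, with points for libraries and bars for the mean and SD (n = 3). MXD3 and MXD4 climb and MAX and MLX drop over the imatinib times, and MNT is lowest in KCl 3h.

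Counted over the 10 genes, imatinib for 18 h gave the most calls. In mRNA 5 members were called, where 30.5% of all 18095 genes tested were called. Of these, 3 were higher (MXD3, MXD4, MXI1), against 17.2% of genes, and 2 lower (MYC, MAX), against 13.2%. In nuclear RNA 5 were called as well, 2 higher (MXD3, MXD4) and 3 lower (MYC, MAX, MLX), against 32.6% of 21929 genes called, 17.2% higher and 15.4% lower. At IM 6h 3 members were called, against 9.94% of genes. MXD3 and MXD4 were higher (5.82% of genes) and MYC lower (4.12%). At IM 1h no member was called by edgeR in mRNA (0.0166% of genes) or in nuclear RNA (0.0456%). An unadjusted p under 0.05 was reached by 2 members in mRNA (1.14% of genes) and by 3 in nuclear RNA (3.85%), and DESeq2 called 0 and 1. In edgeR, MYC was called at IM 1h in both fractions without the low-count filter, and in nuclear RNA with the replicate block. From 6 to 18 h of imatinib 1 member was called, against 4.41% of genes, and it was higher (MXD4), against 2.48% higher and 1.93% lower. The median change of the members at IM 18h in mRNA was 0.01 on the log2 scale, and that of all genes tested was 0.04.

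The other treatments gave few calls. At JTE 6h 1 member was called (MXD3, higher), where 13.2% of genes were called, 6.73% higher and 6.47% lower. At JTE 1h edgeR called 0 members (0.851% of genes) and DESeq2 0, with 1 member at an unadjusted p under 0.05 (7.41% of genes). At JTE 18h edgeR called 0 members and DESeq2 1, where 5.39% of genes were called, 3.29% higher and 2.09% lower, and 5 members had an unadjusted p under 0.05 (22.7% of genes). At KCl 3h 1 member was called (MNT, lower), where 11.9% of genes were called, 4.55% higher and 7.33% lower. At KCl 1h edgeR and DESeq2 called 0 members (5.45% of genes), and none had an unadjusted p under 0.05 (15% of genes).

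In nuclear RNA edgeR and DESeq2 called 0 members at JTE 1h, where 8.52% of genes were called, 7% higher and 1.51% lower, and 4 members had an unadjusted p under 0.05 (21.8% of genes). Both tools also called 0 at nuclear KCl 1h, where 23.8% of genes were called, 15.3% higher and 8.5% lower, and 3 members had an unadjusted p under 0.05 (34.8%). Between JTE 18h and JTE 6h they called 0 (13.4% of genes), with 4 members at an unadjusted p under 0.05 (34.3%), and between KCl 3h and KCl 1h 0 (3.29%), with 3 members (14.9%). In the tests of nuclear against mRNA responses edgeR and DESeq2 called 0 members. The members with an unadjusted p under 0.05 numbered 0 for IM 1h (0% of genes called, 2.03% at that p), 1 for IM 18h (0.0901% and 4.88%), 2 for JTE 1h (0.0605% and 5.93%) and 1 for KCl 1h (0.668% and 9.65%).

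Groups of 3 libraries that do not overlap, as described above for single members, were common over all genes and are read against that share. Against CTRL in mRNA they held for 2 members at IM 1h (4.22% of genes), 6 at IM 6h (32.4%), 6 at IM 18h (55.5%), 3 at JTE 1h (11.2%), 2 at JTE 6h (29.9%), 6 at JTE 18h (31.4%), 4 at KCl 1h (17.8%) and 3 at KCl 3h (30%). In nuclear RNA they held for 4 members at IM 1h (9.83%), 9 at IM 18h (53.6%), 5 at JTE 1h (28.3%) and 3 at KCl 1h (37.5%). Between times they held for 4 members with imatinib (29.7%), 4 with JTE (38.3%) and 5 with KCl (18.1%). The counts at IM 18h mRNA, JTE 6h, KCl 3h, nuclear KCl 1h and between the JTE times lay near or below the share over all genes.

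**Figure D3:**
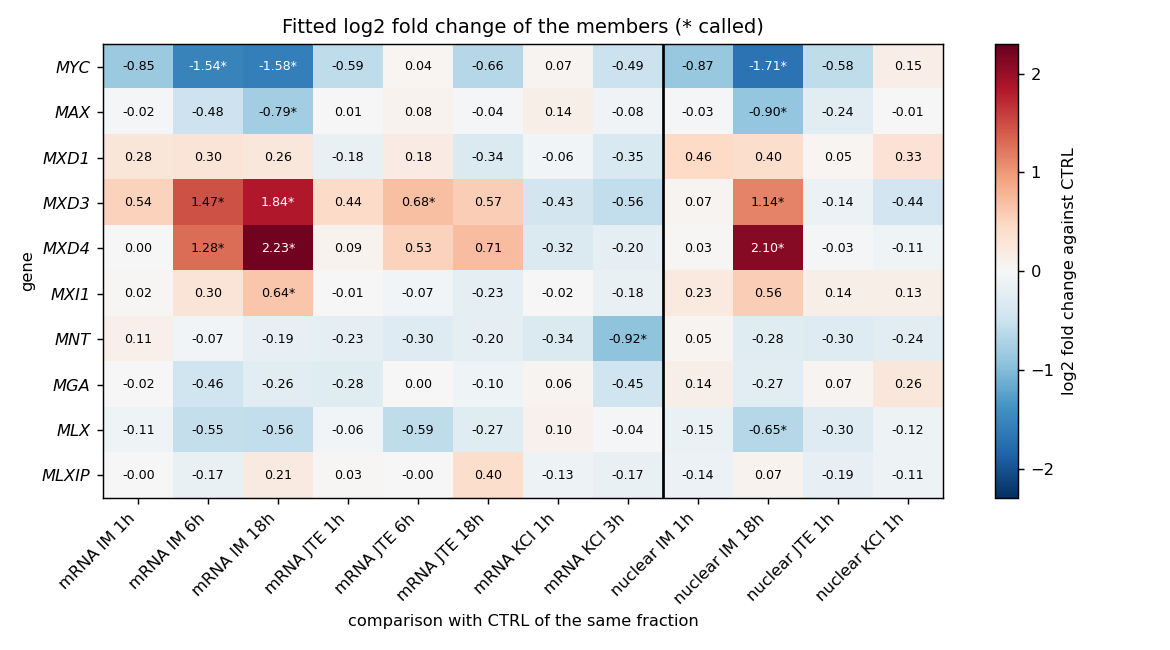
Fitted log2 fold change against CTRL of the same fraction (color and printed value) for the 10 genes (rows) in 8 mRNA and 4 nuclear comparisons (columns), with an asterisk where a gene was called by edgeR. The IM 18h columns of both fractions show MYC and MAX lower and MXD3 and MXD4 higher; the comparisons of a fraction share their CTRL libraries.

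To set MYC against its antagonists within each library, its level per kilobase was divided by the summed level per kilobase of MXD1, MXD3, MXD4, MXI1 and MNT. This is a ratio of RNA and is described without a test. Its value was 5.93, 6.76 and 4.26 in the CTRL mRNA libraries, 3.90, 3.23 and 1.56 at IM 1h, 2.33, 0.860 and 1.30 at IM 6h and 0.924, 1.22 and 1.49 at IM 18h. All imatinib libraries were below CTRL, and 1 library of IM 6h and 1 of IM 18h had less MYC than antagonist RNA. In JTE the mean was 3.94 ± 0.605 at 1 h, 5.50 ± 0.271 at 6 h and 3.96 ± 0.0488 at 18 h, and in KCl 6.39 ± 1.03 at 1 h and 5.10 ± 0.389 at 3 h (SD, n = 3), against 5.65 ± 1.27 in CTRL. The nuclear ratio was 6.04 ± 0.713 in CTRL, 2.76 ± 0.631 at IM 1h, 1.15 ± 0.324 at IM 18h, 4.03 ± 0.298 at JTE 1h and 6.30 ± 0.557 at KCl 1h. No antagonist was called at IM 1h in either fraction.

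**Figure D4:**
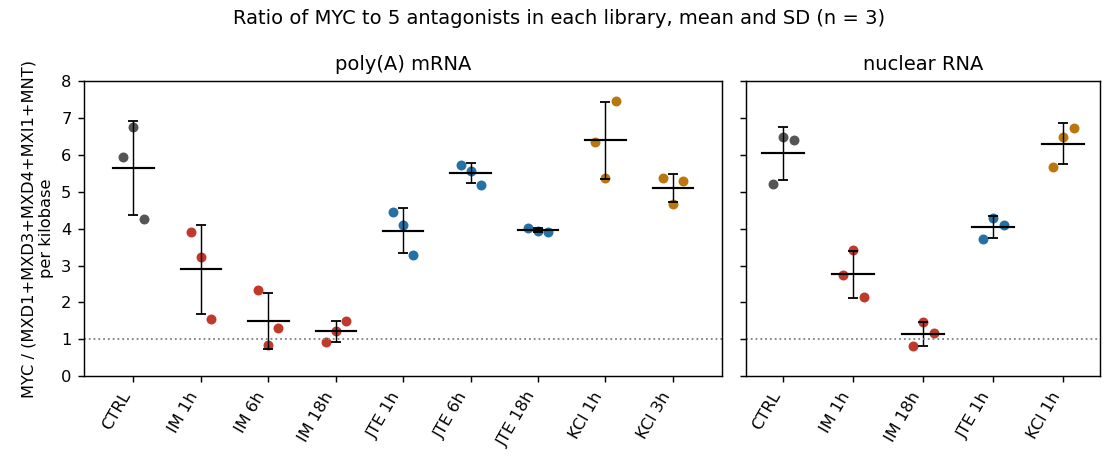
Ratio of MYC to the summed level of MXD1, MXD3, MXD4, MXI1 and MNT, each in CPM per kilobase (vertical axis), for each library of the mRNA (left) and nuclear (right) groups, with the mean and SD (n = 3). The dotted line marks equal levels; the mean falls from 5.65 in CTRL to 1.21 at IM 18h in mRNA.

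Genes that MYC is known to activate were followed as a list of 33, all of which passed the low-count filter. This list, like the others below, was chosen with earlier results of these data known. Its counts are therefore not independent of these data. At IM 18h 26 were lower and 1 higher in mRNA, where 13.2% of all genes tested were lower and 17.2% higher. The median log2 fold change was -1.16 against 0.04 over all genes tested. In nuclear RNA 28 were lower and 0 higher, against 15.4% and 17.2% of genes, with a median of -1.43 against 0.00. At IM 6h 13 were lower and 0 higher, against 4.12% and 5.82% of genes (median -0.59, against 0.04 over all genes). At IM 1h the counts were 0 and the medians close to 0 in both fractions (-0.0032 in mRNA and 0.00070 in nuclear RNA). The strongest falls at IM 18h were those of CCND2 (log2 fold change -2.39, adjusted p 4.84e-11 in edgeR), a D-type cyclin, and of the ribosome biogenesis factors NOP16 (log2 fold change -2.02, adjusted p 8.52e-08 in edgeR), RRP9 (log2 fold change -1.99, adjusted p 7.28e-06 in edgeR) and MYBBP1A (log2 fold change -1.83, adjusted p 2.12e-05 in edgeR). CCND2 went from 202 ± 28.5 to 38.5 ± 2.28 CPM (SD, n = 3). ODC1, the first enzyme of polyamine synthesis, went from 779.5 ± 103 to 349.7 ± 16.7 CPM (log2 fold change -1.16 with SE 0.17, adjusted p 7.37e-06 in edgeR), and the nucleolar protein gene NCL from 1547 ± 211 to 676 ± 102 CPM (log2 fold change -1.19 with SE 0.18, adjusted p 1.67e-05 in edgeR). The member that rose was TFRC, the transferrin receptor gene, which is also on the K562 marker list (log2 fold change 0.72 with SE 0.19, adjusted p 0.00325 in edgeR), a call that was lost without IM 18h replicate 1. In the other comparisons with CTRL at most 1 gene of the list was called, MYBBP1A at JTE 6h (log2 fold change -0.85 with SE 0.27, adjusted p 0.0318 in edgeR) and EIF4A1 in nuclear JTE 1h (log2 fold change -0.75 with SE 0.15, adjusted p 0.00292 in edgeR), both lower. The MYBBP1A call was lost when replicate 1 of CTRL, or replicate 1 or 3 of JTE 6h, was left out. Without JTE 6h replicate 2 the list had 2 genes lower. At JTE 18h in mRNA 0 genes of the list were called, but its median log2 fold change was -0.30, against -0.01 over all genes tested. The E-box core stood in a promoter of 16 of the 28 list genes with a promoter given, against 8.77% of all genes with one. As the list was composed of known MYC targets, this share describes the list, and its bearing on the changes was not tested.

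Of 10 genes that MYC is known to repress, 7 passed the filter. At IM 18h 4 were higher and 1 lower in mRNA (median 0.62), against 17.2% and 13.2% of all genes tested. In nuclear RNA 4 were higher and 2 lower (median 0.64), against 17.2% and 15.4%, and the number lower was 1 without nuclear CTRL replicate 1 or 2 or nuclear IM 18h replicate 3. The genes lower there were CDKN1A and the stress gene GADD45A. NDRG1, a growth arrest and stress gene, went from 1.25 ± 0.270 to 7.73 ± 4.64 CPM (log2 fold change 2.62 with SE 0.54, adjusted p 0.000468 in edgeR), and the kinase inhibitor genes CDKN2C (log2 fold change 0.92, adjusted p 7.01e-06 in edgeR) and CDKN1B (log2 fold change 0.62, adjusted p 0.00819 in edgeR) rose too. The other inhibitor gene, CDKN1A, fell (log2 fold change -1.65 with SE 0.44, adjusted p 0.00401 in edgeR) with imatinib and rose at KCl 3h (log2 fold change 2.50 with SE 0.37, adjusted p 2.64e-05 in edgeR). GADD45G, a stress gene, was called higher in both but held at most 1 count in any CTRL library, against 2 to 10 at IM 18h and 4 to 30 at KCl 3h, and no fold is given. The number higher at IM 18h was 2 without IM 18h replicate 1 and from 3 to 4 in the other fits without 1 library.

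The 3 genes that MLXIP with MLX is known to activate rose together at 18 h of imatinib. Of these, 2 were called lower at KCl 3h, where 7.33% of all genes tested were. At IM 18h all 3 were called higher in mRNA (median 1.43) and in nuclear RNA (median 1.28), against 17.2% of all genes tested in each fraction. The number was 2 in mRNA without CTRL replicate 3 or IM 18h replicate 1, and 2 in nuclear RNA without nuclear CTRL replicate 2 or 3 or nuclear IM 18h replicate 1 or 2. TXNIP, a thioredoxin-binding inhibitor of glucose uptake, went from 292 ± 96.3 to 787 ± 112 CPM (log2 fold change 1.43 with SE 0.39, adjusted p 0.00526 in edgeR), and the arrestin-like gene ARRDC4 from 31.96 ± 11.9 to 116 ± 21.4 CPM (log2 fold change 1.86 with SE 0.40, adjusted p 0.000735 in edgeR). At KCl 3h both fell, TXNIP to 49.02 ± 16.1 CPM (log2 fold change -2.57 with SE 0.41, adjusted p 0.000115 in edgeR) and ARRDC4 to 12.01 ± 2.37 CPM (log2 fold change -1.41 with SE 0.41, adjusted p 0.0191 in edgeR). TXNIP also fell in nuclear RNA after JTE 1h (log2 fold change -0.63 with SE 0.14, adjusted p 0.00537 in edgeR). Only 1 gene of the list was called at KCl 3h without CTRL replicate 2 or KCl 3h replicate 1 or 2, and the nuclear JTE 1h call was lost without nuclear CTRL replicate 2 or JTE 1h replicate 1 or 3. MLXIP itself was not called in any comparison, and MLX was lower rather than higher at IM 18h. MLXIPL, which encodes a paralog of MLXIP, was called higher at IM 18h in both fractions, as given in the last section. The mRNA call of MLXIPL was lost in some fits without 1 library, and its part in these changes was not tested.

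**Figure D5:**
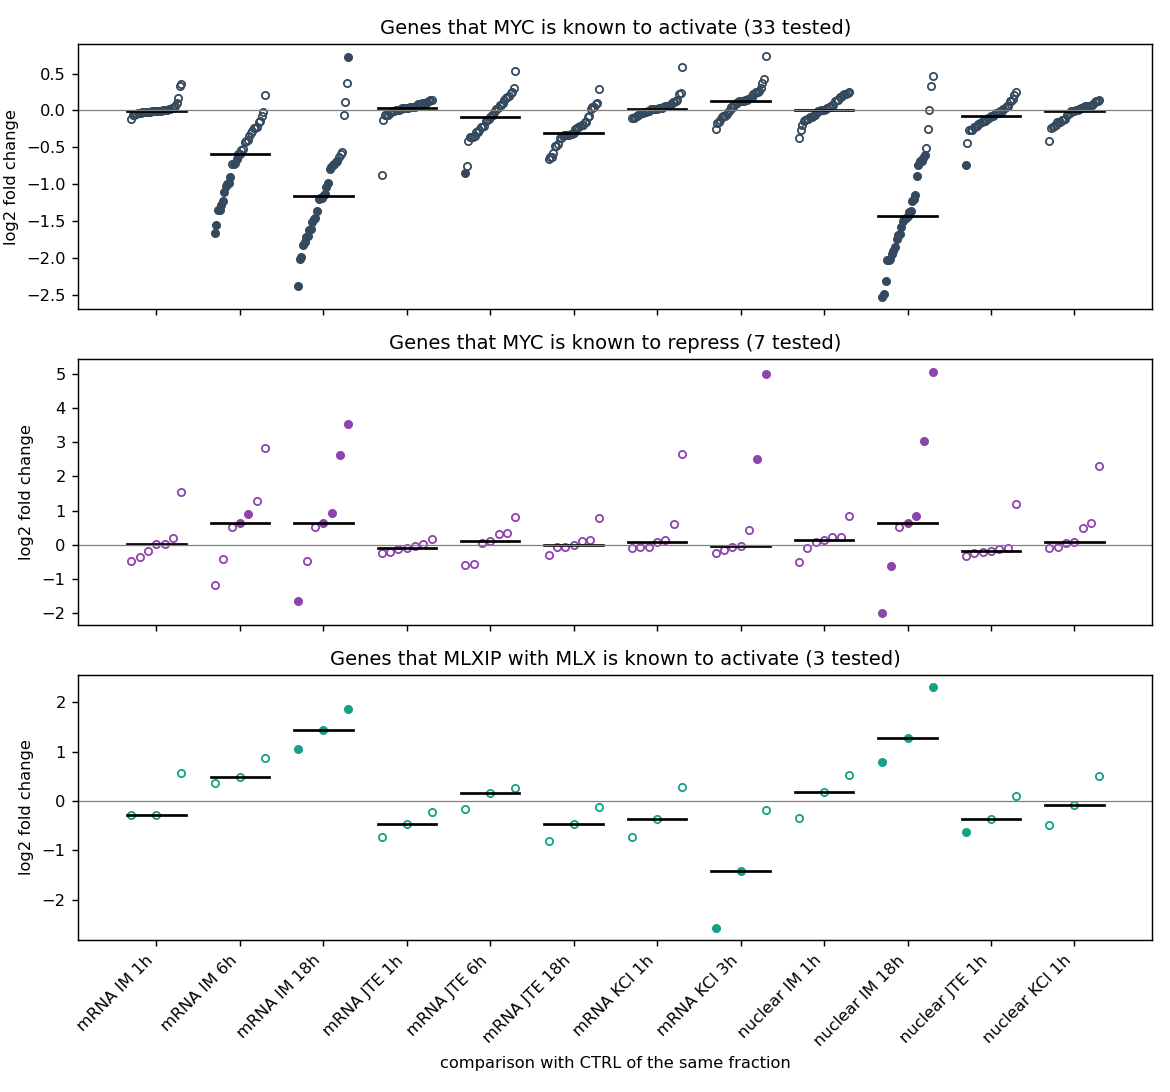
Log2 fold change against CTRL (vertical axes) of each gene of 3 target lists in the 12 comparisons with CTRL, with filled points for called genes, open points for the rest and a bar at the list's median. The MYC-activated genes shift downward at IM 6h and IM 18h; the top points of the middle panel at IM 18h and KCl 3h are GADD45G, whose CTRL libraries hold at most 1 count, so their height is not a measured fold.

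Finally, the genes whose changes were most like those of MYC were sought over the 8 mRNA comparisons with CTRL, among 8719 genes with a symbol and a mean of at least 10 CPM. Likeness was the root-mean-square difference in log2 fold change, which had a median of 0.899 over these genes. The closest was ITPRIP (0.226), a modulator of the inositol trisphosphate receptor, followed by the nuclear receptor gene NR2F2 (0.333), CASS4 (0.338), AEN (0.347), a nuclease gene, and TSC22D2 (0.354). For ITPRIP the log2 fold changes were -0.69 at IM 1h, -1.18 at IM 6h, -1.36 at IM 18h, -0.47 at JTE 1h, 0.05 at JTE 6h, -0.33 at JTE 18h, -0.13 at KCl 1h and -0.70 at KCl 3h. These comparisons share their CTRL libraries, so the likeness holds whatever those libraries have in common.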

How the data were processed

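The authors deposited a raw count of read pairs for each gene. They trimmed and deduplicated the reads, aligned them to hg38 with STAR, kept unique alignments, and counted pairs over exons with featureCounts without a strand option. The annotation release is not given in the sources used here. Pairs over exons shared by genes were not counted, and antisense reads were counted for a gene, so values of overlapping genes are uncertain. Alignments across long introns were not allowed, which can lower the counts of genes with such introns. The part of this in the levels per kilobase and in the ratio of MYC to its antagonists was not tested. No count column was without a sample.

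From the deposited counts, CPM were computed with TMM-scaled totals, and tests were made in edgeR 4.0.16 (R 4.3.3) with the quasi-likelihood method, robust dispersion and filterByExpr, fitting all libraries of a fraction at once. Calls needed an adjusted p (Benjamini-Hochberg, over all genes tested) under 0.05 and a change beyond 0.6 on the log2 scale; nuclear minus mRNA responses were interaction terms in the libraries concerned. Total counts per library were at least 16175394, and replicates differed by more than sampling noise (chi-square per gene from 2.37 to 62.5), so each library was 1 replicate.

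Named were the 10 members, up to 4 called genes of each list with the largest change at IM 18h mRNA and up to 2 elsewhere, a few fixed genes (TXNIP, ARRDC4, ODC1, NCL, PVT1, MYCN, MYCL, MLXIPL) and the 5 genes most like MYC. TFRC, NCOR1, BPTF, KAT2A, WDR5, GADD45A and the genes sharing exons with members (PRELID1, RAB24, PSMC3IP) fall outside this rule and were chosen after their values were seen. The members and the 7 lists were chosen with earlier results of these data known. Matching IDs to GENCODE 44 placed 57511 of 57532 at overlapping positions.

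Replicate numbers came from the sample titles. Same-number libraries deviated together in every nuclear comparison (correlations from 0.235 to 0.891), so these are paired. So are JTE 18h with JTE 6h (0.112 to 0.322) and KCl 3h with KCl 1h (0.584 to 0.671). For the other mRNA comparisons pairing was not settled. Replicate 3 deviated together with CTRL at IM 1h (0.877), JTE 1h (0.861) and KCl 1h (0.846), while replicates 1 and 2 had negative correlations. The paper lists 19031221 mapped reads for mRNA control replicate 1 and 18333127 for replicate 2, the reverse of the titles. The numbering of these CTRL libraries is thus uncertain, as is the replicate block in mRNA comparisons with CTRL. The alternatives were DESeq2 1.42.0, RLE and upper quartile normalization, no low-count filter, no fold threshold, only the 2 groups, a replicate block, thinning to the smallest library, and leaving out each library. On simulated counts for IM 18h in mRNA (15982 genes), the fit recovered 86% of genes changed by 1 on the log2 scale and 100% of those changed by 2. For the nuclear minus mRNA response to KCl 1h (18729 genes), it recovered 40% and 98%.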

Additional observations from a re-analysis of the deposited data

Results flagged for a closer look

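MXD4 mRNA differed between 6 h and 18 h of imatinib, with a log2 fold change of 0.95 in the test of the 18 h against the 6 h libraries (SE 0.22, edgeR adjusted p 0.0100). The 3 libraries at 18 h (46.8, 33.7 and 32.2 CPM) were all above the 3 at 6 h (14.8, 16.4 and 27.2 CPM). The call was lost when replicate 1 of IM 18h, or replicate 1 or 2 of IM 6h, was left out (log2 fold changes from 0.76 to 0.85).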

How the results depend on the processing

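The 16 called changes of members kept their direction under all 8 alternatives other than leaving out a library, and 124 of 128 values stayed past the threshold; the exceptions were MXD3 at JTE 6h without the low-count filter (0.63) or with only the 2 groups (0.67), which missed the adjusted p (0.152 and 0.0781 in edgeR), and MXI1 at IM 18h without the filter (0.55) and nuclear MLX at IM 18h with upper quartile factors (-0.53), which missed the fold threshold. Leaving out a library kept 82 of 96. Upper quartile factors shifted all genes by 0.12 at nuclear IM 18h and by 0.14 for the nuclear minus mRNA response to KCl 1h.

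The number of members called, without the low-count filter, was 1 at IM 1h, 2 at JTE 18h, 1 between JTE 18h and 6h, 1 between KCl 3h and 1h and 1 at nuclear IM 1h. Without the fold threshold it was 6 at IM 6h, 2 at JTE 6h, 1 at JTE 18h, 2 at KCl 3h, 2 between IM 18h and 6h, 2 between JTE 18h and 6h, 1 between KCl 3h and 1h, 8 at nuclear IM 18h, 1 at nuclear JTE 1h and 2 at nuclear KCl 1h. At JTE 18h it was 1 (MXD4) with DESeq2, RLE or upper quartile factors, thinning or the replicate block, and 2 with only the 2 groups, which also gave 1 between JTE 18h and 6h. At nuclear IM 1h it was 1 (MYC) with DESeq2 or the replicate block, and in the paired comparisons the block changed no other member call. Without 1 library the number ran from 3 to 4 at IM 6h, 4 to 6 at IM 18h, 0 to 2 at JTE 6h, 1 to 2 at KCl 3h, 0 to 1 between IM 18h and 6h and between KCl 3h and 1h, 4 to 6 at nuclear IM 18h and 0 to 1 at nuclear JTE 1h. The share of all genes called under these other settings is not given here. The counts of this paragraph therefore show only how the member calls depend on the setting.

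Small uncalled changes of MYC turned sign: at JTE 6h without the filter (-0.011), between IM 18h and 6h with the replicate block (0.013), in the nuclear minus mRNA response to IM 1h with the block (0.010) and to KCl 1h with DESeq2 (0.045), RLE (0.053), no filter (0.035), thinning (0.0054) or upper quartile factors (0.11). Without 1 library MYC ran from -0.14 to 0.22 at JTE 6h, -0.098 to 0.27 at KCl 1h, -0.35 to 0.31 between IM 18h and 6h, and in the nuclear minus mRNA responses from -0.28 to 0.28 (IM 1h), -0.26 to 0.11 (IM 18h), -0.18 to 0.23 (JTE 1h) and -0.20 to 0.11 (KCl 1h). Genes that MYC is known to activate that were lower at IM 18h than at 6h numbered 8, but 13 without the filter, 1 to 5 when any IM 18h replicate or IM 6h replicate 1 or 2 was left out, and 11 without IM 6h replicate 3. The genes that it is known to repress that were higher at IM 18h numbered 4, but 2 with only the 2 groups. With a minimum of 1 CPM, 1 of the 5 genes most like MYC remained. The cause of these moves was not tested. MXD3 and the low genes of the lists rest on few counts, and the tests cover these cultures of 1 line only.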

Other observations

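Of 19 cofactors of MYC and corepressors of the MXD proteins, 0 were higher and 2 lower at IM 18h in mRNA (17.2% and 13.2% of all genes tested), so the number lower was not above the share over all genes. They were the ATPase genes RUVBL2 (log2 fold change -1.01, adjusted p 9.38e-08 in edgeR) and RUVBL1 (log2 fold change -1.001, adjusted p 1.47e-05 in edgeR). In nuclear RNA 1 was higher (BPTF, lost without nuclear IM 18h replicate 1) and 4 lower (RUVBL1, RUVBL2, KAT2A and WDR5), against 17.2% and 15.4% of genes. At JTE 6h 3 of the 19 were lower, against 6.47% of genes, with CDK9, the kinase of the elongation factor P-TEFb, among them. It held 45.3 ± 2.17 CPM in CTRL (SD, n = 3) and 16.8 ± 4.61 at JTE 6h (log2 fold change -1.43 with SE 0.13, adjusted p 3.57e-08 in edgeR), followed by the acetyltransferase scaffold gene TRRAP (log2 fold change -0.80, adjusted p 2.95e-06 in edgeR) and by the corepressor gene NCOR1 (log2 fold change -0.75, adjusted p 6.08e-07 in edgeR), and the number lower was 3 in each of the 6 fits without 1 library. RUVBL2 was lower at JTE 18h as well (log2 fold change -0.71 with SE 0.10, adjusted p 8.24e-05 in edgeR).

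Of 12 genes for the turnover of MYC protein, 2 were called at IM 18h in mRNA, where 30.5% of all genes tested were, so that the list had no more calls than genes at large. USP36, a nucleolar deubiquitinase gene, fell (log2 fold change -1.33 with SE 0.22, adjusted p 3.43e-05 in edgeR), and the ubiquitin ligase gene FBXO32 rose (log2 fold change 1.85 with SE 0.52, adjusted p 0.00547 in edgeR) from 3 to 7 counts per CTRL library to 12 to 24, a call that was lost without IM 18h replicate 1. When replicate 1 or 3 of CTRL, or replicate 1 of IM 18h, was left out, 2 genes of the list were lower. FBXO32 was also higher in nuclear KCl 1h, at 4.59 ± 1.78 against 0.443 ± 0.399 CPM (log2 fold change 3.34 with SE 0.42, adjusted p 5.48e-06 in edgeR).

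Among 8 other genes of the extended family, 7 passed the filter and MYCN did not, with at most 2 counts in any library. MLXIPL, which encodes a paralog of MLXIP, rose at IM 18h in mRNA (log2 fold change 1.31 with SE 0.51, adjusted p 0.0426 in edgeR) and in nuclear RNA (log2 fold change 1.36 with SE 0.18, adjusted p 4.26e-06 in edgeR). MYCL fell at KCl 3h (log2 fold change -1.08 with SE 0.34, adjusted p 0.0338 in edgeR) and had a log2 fold change of 0.13 at IM 18h. PVT1, a non-coding neighbor of MYC, held 40.7 ± 1.40 CPM in CTRL and 77.9 ± 7.51 at JTE 18h (log2 fold change 0.94 with SE 0.13, adjusted p 4.74e-05 in edgeR), against a log2 fold change of -0.09 at IM 18h. The mRNA call of MLXIPL at IM 18h was lost when replicate 1 or 2 of CTRL or of IM 18h was left out, and that of MYCL at KCl 3h without CTRL replicate 2 or KCl 3h replicate 2 or 3.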
